A study of Mus musculus with 6 samples.

Results

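Interferon response and antigen presentation genes were examined in mouse retina, in the ganglion cell layer, at 6 hrs of optic nerve injury by crush. The list held 46 mouse genes, chosen by name for their place in the pathway and grouped by role, and 40 of them were measured among 15103 genes in all. A gene counted as measured when a probe set assigned to that gene alone had a mean intensity of at least 40 over the 6 arrays, and the brightest such probe set stood for the gene. Of the other 6 genes, the antiviral GTPases Mx1 and Mx2 and the virus tether Bst2 had mean intensities of 29.2, 33.6 and 32.1, under that minimum. Gbp4 and Isg15 had only probe sets assigned to several genes, and Ifi44 had no probe set in the platform table used here.

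The crush group was 3 crushed eyes of male C57BL/6J mice, taken 6 hrs after the optic nerve was crushed behind the globe. The control group was the 3 uninjured contralateral eyes, so both groups came from animals that had undergone surgery and no eye came from an uninjured animal. About 6000 cells of the ganglion cell layer were collected per eye by laser capture, and the amplified RNA of each eye went onto 1 Affymetrix whole-genome mouse array, a chip on which a set of short probes reports each transcript as an intensity in arbitrary units. Laser capture took the whole layer, which holds displaced amacrine cells, glia, microglia and vessels beside the retinal ganglion cells (RGCs), whose axons form the optic nerve. In such tissue, fewer cells of a type and less RNA per cell cannot be told apart.

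Interferons bind receptors that activate JAK kinases. The kinases phosphorylate STAT proteins, and a complex that holds Stat2 and Irf9 binds the interferon-stimulated response element (ISRE) and switches on the interferon-stimulated genes. Many products of these genes act against viral RNA, and others load peptides onto class I molecules for display to T cells. Microglia, glia and neurons of the retina can all respond to interferons.

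RGC markers were measured for 13 of 14 genes, with only Pou4f2 under the minimum, and they summed to 57668 to 72295 units over the crushed eyes and 64124 to 66085 units over the control eyes. Array medians lay between 131 and 154, the lowest on the array of crushed eye 2. That array held the lowest value of all 6 for 36.5% of all genes and for 17 of the 40 interferon genes (42.5%). No probe set of 33169 passed an adjusted p under 0.05 in limma with the pair as a block, while 833 (2.51%) were lower and 1713 (5.16%) higher at an unadjusted p under 0.05. A gene past that unadjusted threshold is called nominally lower or nominally higher here. An exact permutation test on 3 eyes against 3 cannot give a p under 0.1, and by pair not under 0.25.

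Among the 40 interferon genes the crush eyes tended to the low side. The median log2 difference, crush minus control, was -0.12 over these genes and -0.02 over all genes. It was below 0 for 26 of the 40 (65%), against 54.3% of all genes. Oasl2, Rtp4 and Tap1 were nominally lower (3 of 40, 7.5%, against 2.27% of all genes) and no gene of the list was nominally higher (0 of 40, against 2.76% of all genes). The adjusted p of each of the 3 was 0.642 in limma.

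The eye-by-eye order showed the same side in more genes. In 9 of the 40 genes (22.5%) every crushed eye lay below every control eye, against 5.32% of all genes. These were Oasl1, Oasl2, Ifit1, Ifit2, Ifit3, Rtp4, Rsad2, Dtx3l and Tap1. The reverse held only for H2-D1 (2.5%), against 5.69% of all genes. In 12 genes (30%) the crushed eye was lower in all 3 pairs, the 9 above and Gbp3, Ifih1 and Ifi35, against 15% of all genes, and in 5 genes (12.5%) it was higher in all pairs, against 15.2%. These counts of order were chosen after the values had been seen. In the same eyes 5 of 9 marker genes of Muller glia (55.6%) and 5 of 11 of microglia (45.5%) were lower in all pairs, and the part of these cells was not tested.

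**Figure D1:**
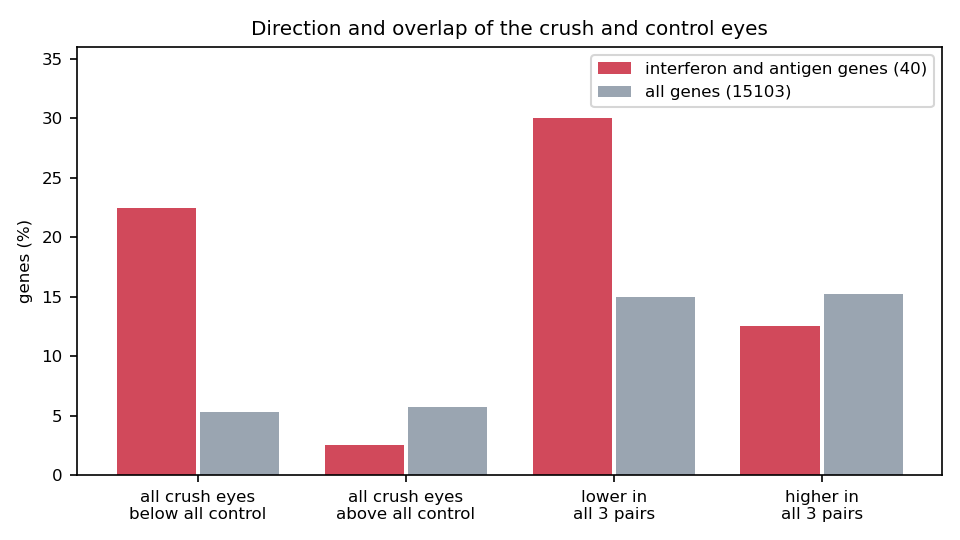
Share of genes in percent by the order of the crush and control eyes, for the 40 measured interferon and antigen presentation genes (red bars) and all 15103 genes (grey bars). The red bar is the taller for the lower orders, 22.5% against 5.32% and 30% against 15%, and the shorter for the higher ones.

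The differences ran from -1.0 to 0.37 on the log2 scale. Differences and fold changes below are on this scale too, unless written with the suffix -fold. Neither receptors nor transcription factors had a gene lower in all pairs, though Ifnar1 was lower in all pairs after quantile normalization. All 12 such genes lay among the 29 effector and antigen presentation genes (41.4% of them), whose median difference was -0.18, and whether the roles differ was not tested. The 9 genes without overlap between groups were all among these 29 as well (31%). The pairs differed in size and in sign: the 40 genes had medians of -0.12, -0.26 and 0.10 in pairs 1 to 3, beside 0.01, -0.10 and 0.04 over all genes. In pair 3 the median of the list was thus above 0.

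**Figure D2:**
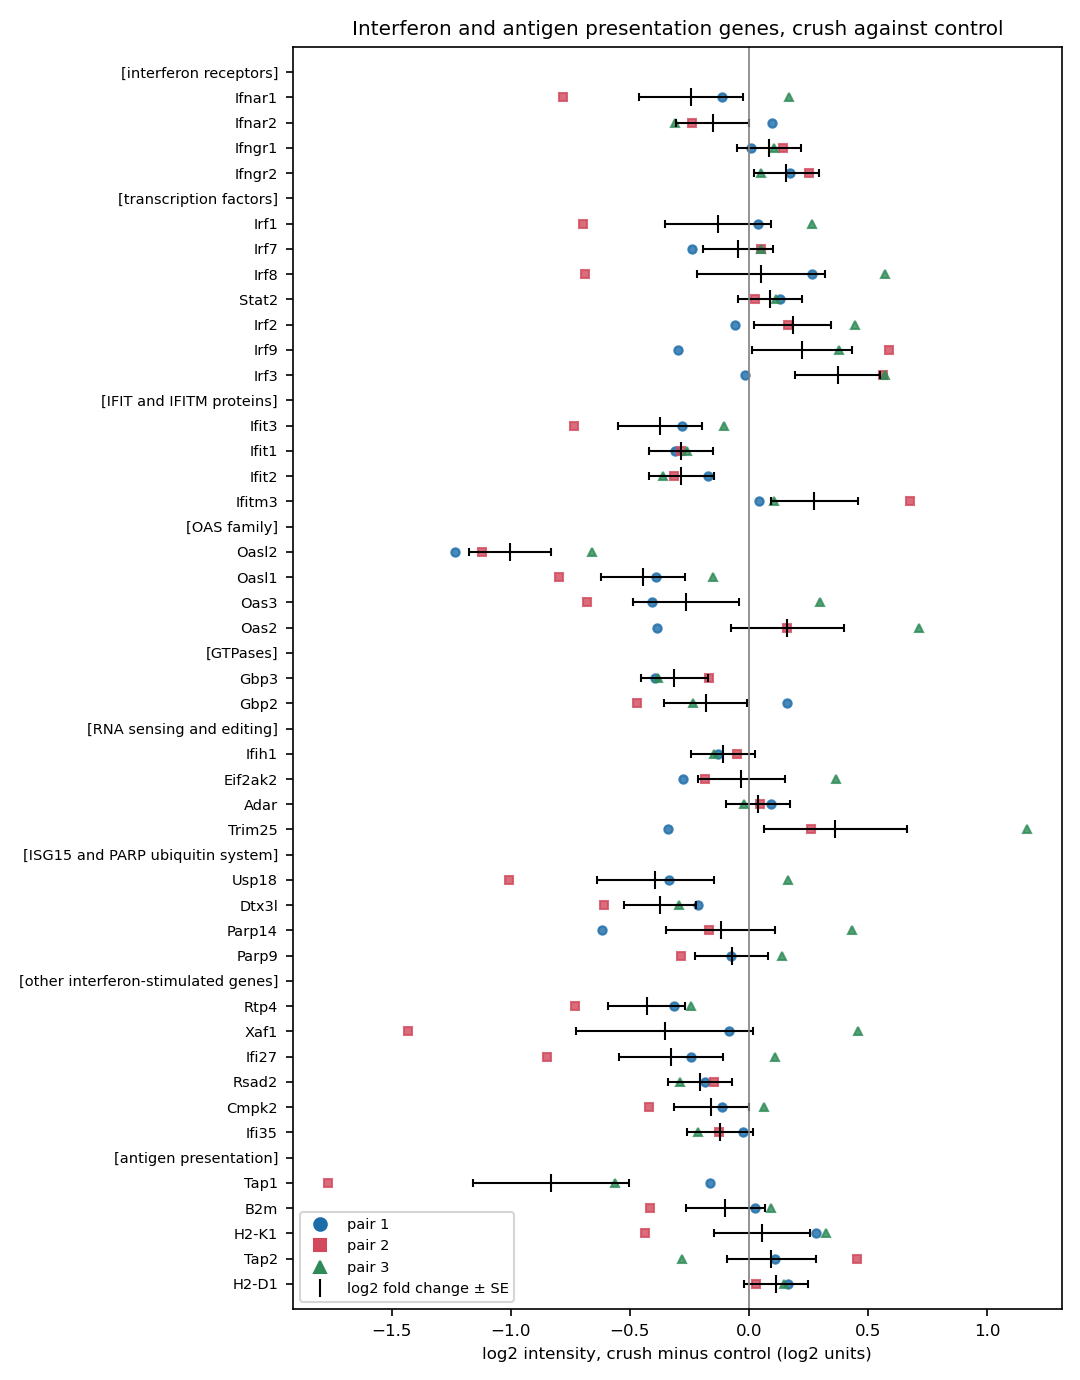
Difference in log2 intensity, crush minus control, for each of the 40 measured genes, grouped by role and ordered within a role. Symbols are the 3 pairs and the black bar is the limma log2 fold change with its standard error; Oasl2 lies farthest left at -1.0 and Irf3 farthest right at 0.37.

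The promoters of some of these genes carry the element through which the pathway acts, and 5 are shown to set the genes that were lower beside their sequence. The ISRE was searched as TTTC, any 2 bases and TTTC again, or on the other strand GAAA, any 2 bases and GAAA, in windows of 300 bases, from 250 before the start site to 50 after it. RefSeq promoters on build GRCm38.p6 were matched for 36 of the 46 genes, and 14 of the 36 held a match, against 3.99% of all 27025 genes with a window. Each stretch below is the 200 bases just before the start site, with the match in capitals, for Ifit1 (chr19:34640689-34640888, plus strand), Ifit3 (chr19:34583329-34583528, plus strand), Rsad2 (chr12:26456453-26456652, minus strand), Gbp3 (chr3:142559844-142560043, plus strand) and Oasl2 (chr5:114896734-114896933, plus strand).
Ifit1: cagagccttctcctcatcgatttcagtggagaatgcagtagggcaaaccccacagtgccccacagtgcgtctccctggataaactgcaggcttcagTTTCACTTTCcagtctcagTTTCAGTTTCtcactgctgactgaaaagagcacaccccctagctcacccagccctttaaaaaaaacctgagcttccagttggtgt
Ifit3: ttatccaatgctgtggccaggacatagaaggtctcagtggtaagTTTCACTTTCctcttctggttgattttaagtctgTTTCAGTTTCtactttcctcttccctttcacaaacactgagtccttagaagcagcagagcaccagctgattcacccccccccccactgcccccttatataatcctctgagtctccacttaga
Rsad2: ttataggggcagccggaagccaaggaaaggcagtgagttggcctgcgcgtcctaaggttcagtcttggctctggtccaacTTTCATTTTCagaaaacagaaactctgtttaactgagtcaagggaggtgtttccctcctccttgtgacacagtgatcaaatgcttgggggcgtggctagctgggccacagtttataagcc
Gbp3: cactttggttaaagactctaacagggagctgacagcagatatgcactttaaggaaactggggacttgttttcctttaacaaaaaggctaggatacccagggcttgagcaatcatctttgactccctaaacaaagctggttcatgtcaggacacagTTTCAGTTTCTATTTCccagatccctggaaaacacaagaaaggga
Oasl2: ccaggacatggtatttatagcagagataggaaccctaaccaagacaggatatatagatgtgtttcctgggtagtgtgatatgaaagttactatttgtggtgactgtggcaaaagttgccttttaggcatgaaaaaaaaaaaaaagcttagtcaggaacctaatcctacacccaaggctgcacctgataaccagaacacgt
Ifit1 had matches 104 and 85 bases before the start site, Ifit3 at 156 and 122, and Rsad2 at 120, while the 2 matches of Gbp3, at 45 and 39, overlap. Oasl2, the gene with the largest difference of the list, had no match in its window. Of the 9 genes below every control eye 8 had a promoter entry, and a match was found in 3 of these 8 and in 9 of the 25 promoters of the other measured genes. The STAT site TTCNNNGAA, which reads the same on both strands, was found in 11 of the 36 promoters and in 9.55% of all genes. It was found in 1 of the 8 (Ifit2) and in 9 of the 25.

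The 4 receptor subunits were measured and none was nominally changed. Ifngr1 and Ifngr2, which together bind interferon gamma, were higher after crush in every pair, with differences of 0.08 and 0.16 (adjusted p = 0.867 and 0.750 in limma), but not in every pair after quantile normalization or median scaling. Ifnar1 and Ifnar2, the receptor of the type I interferons, had differences of -0.24 and -0.15. For Ifnar1 the difference was -0.78 in pair 2 and 0.17 in pair 3. Other probe sets of both type I genes ran the other way, 0.25 for Ifnar1 and 0.37 for Ifnar2, the second of them nominally higher (adjusted p = 0.642).

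The 7 transcription factors had a median difference of 0.09, and none was nominally changed. Irf3, which is activated by viral nucleic acid sensors, had 2162, 1826 and 3075 units in crushed eyes 1 to 3 and 2190, 1235 and 2073 units in control eyes 1 to 3. Its groups overlapped, and the difference of 0.37 (SE 0.18, adjusted p = 0.648) came from pairs 2 and 3. The name of this probe set, of mean intensity 2094, marks probes that may bind related transcripts. The other Irf3 probe sets, at means of 326 and 118, gave 0.31 and -0.39. Irf9 had a difference of 0.22 and Irf2, a repressor of interferon genes, one of 0.18. Irf1 and Irf8, which act downstream of interferon gamma, had differences of -0.13 and 0.05, with pair 2 at -0.70 and -0.69 and pair 3 at 0.27 and 0.57. Irf7, the amplifier of type I interferon production and itself an interferon-stimulated gene, had 75.7, 76.3 and 79.0 units in crushed eyes and 89.4, 73.8 and 76.2 units in control eyes, with overlapping groups. Stat2 was higher in all pairs by 0.09 on its brightest probe set, though not after either scaling, and a dim second probe set was nominally higher by 0.48 (adjusted p = 0.642).

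The 3 IFIT genes, whose products bind viral RNA and block its translation, had lower values after crush in every pair. Ifit1 had 309, 295 and 327 units in crushed eyes 1 to 3 and 384, 359 and 391 units in control eyes 1 to 3. The highest crushed eye lay under the lowest control eye, and the pair differences were close together, at -0.31, -0.28 and -0.26. The fold change was -0.28 (SE 0.13, adjusted p = 0.642 in limma).

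Ifit2 and Ifit3 are neighbours on chromosome 19, with no coding gene between them. Ifit2 had 710.2, 681 and 553 units in crushed eyes and 800.3, 848 and 711 units in control eyes, so that crushed eye 1 reached nearly the level of control eye 3, and the groups overlapped once the arrays were scaled to 1 median. Its fold change was -0.28 (SE 0.14, adjusted p = 0.648). Ifit3 had 747, 561 and 773 units in crushed eyes and 908, 932 and 831 units in control eyes, without overlap and with the lowest value in crushed eye 2. Its fold change was -0.37 (SE 0.18, adjusted p = 0.646), and pair 2 had the largest share of it at -0.73.

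Ifitm3, a membrane protein that blocks virus entry, differed from the IFIT genes. It had 1971, 1817 and 2013 units in crushed eyes and 1917, 1137 and 1869 units in control eyes. Control eye 2 stood apart on the low side, and the difference of 0.27 (SE 0.18, adjusted p = 0.691) was 0.04 and 0.11 in pairs 1 and 3.

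The OAS family, which senses double-stranded RNA or, for the OAS-like genes, modulates that sensing, held the largest difference of the list. Oasl2 had 212, 208 and 187 units in crushed eyes 1 to 3 and 497, 453 and 295 units in control eyes 1 to 3. All crushed eyes lay close together and well under the lowest control eye, while the control eyes were spread. Crushed eyes averaged 202 ± 13.3 units, 2.05-fold lower than control eyes at 415 ± 106 units (SD, n = 3 each). The log2 fold change was -1.0 (SE 0.17, adjusted p = 0.642 in limma), with pairs at -1.23, -1.12 and -0.66. On the brightest probe sets of the 40 genes it alone met a stricter call rule, which also asks for means over 1.2-fold and 80 units apart. That rule called 0.695% of all genes lower and 1.5% higher. Dimmer probe sets of Adar and Ifnar2 also met it, both on the higher side.

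Oasl1 lies beside Oasl2 on chromosome 5 and was also lower in each crushed eye. It had 112, 87.0 and 124 units in crushed eyes and 146, 151 and 138 units in control eyes, without overlap, and a fold change of -0.45 (SE 0.18, adjusted p = 0.642). The difference was smaller than that of Oasl2 in each pair, at -0.39, -0.80 and -0.15. The enzymes Oas2 and Oas3, also neighbours, did not keep a direction over the pairs, with differences of 0.16 and -0.26 and pair 3 at 0.71 and 0.30.

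Of the interferon-induced GTPases, Gbp3 and Gbp2 were measured. Gbp3, of a family of guanylate-binding proteins that attack the vacuoles of intracellular pathogens, had 347, 464 and 269.9 units in crushed eyes and 457, 520.3 and 352 units in control eyes. The groups overlapped because the pairs stood at different levels, but each crushed eye was below its own control eye, by -0.39, -0.17 and -0.38. The fold change was -0.31 (SE 0.14, adjusted p = 0.642). Gbp2 had a difference of -0.18 on its brightest probe set, whose name marks probes that may bind related transcripts. Its second probe set had 90.3, 82.3 and 56.6 units in crushed eyes and 122, 117 and 86.8 units in control eyes and was nominally lower by 0.52 (adjusted p = 0.642).

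The sensors and editors of RNA held no nominally changed gene on their brightest probe sets. The sensor Ifih1 was lower in all pairs by a small amount, with a fold change of -0.11. The kinase Eif2ak2, which halts translation on double-stranded RNA, had a difference of -0.03, and the editing enzyme Adar one of 0.04. A second probe set of Adar had 309, 491 and 779 units in crushed eyes and 221, 246 and 343 units in control eyes, and was nominally higher by 0.89 (adjusted p = 0.642), while another gave -0.29. Trim25, a ubiquitin ligase of the RNA sensing pathway, had 739.5, 933 and 1048 units in crushed eyes and 936, 778 and 467 units in control eyes. Its groups overlapped, and the difference of 0.36 (SE 0.30, adjusted p = 0.738) held -0.34 in pair 1 and 1.17 in pair 3.

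Dtx3l was the gene of the ISG15 and PARP group without overlap between eyes. It encodes a ubiquitin ligase that works with Parp9. Dtx3l had 422, 333 and 377 units in crushed eyes and 490.1, 508 and 462 units in control eyes, with a fold change of -0.37 (SE 0.15, adjusted p = 0.642). A second Dtx3l probe set had 147, 145 and 112 units in crushed eyes and 184, 182 and 180.3 units in control eyes, again without overlap, and was nominally lower by 0.44 (adjusted p = 0.642). Its partner Parp9 and the related Parp14, which flank it on chromosome 16, had differences of -0.07 and -0.12 and were higher in crushed eye 3 than in control eye 3. Usp18, which removes ISG15 and restrains the type I receptor, had 131, 95.6 and 129.5 units in crushed eyes and 165, 192 and 116 units in control eyes. Its groups overlapped through pair 3, and its fold change of -0.39 had an SE of 0.25 (adjusted p = 0.684).

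Among the other interferon-stimulated genes all 6 measured had a fold change below 0, from -0.43 to -0.12. Rtp4, an interferon-induced protein that also carries taste and opioid receptors to the cell surface, had 222, 199 and 198 units in crushed eyes and 276, 329.6 and 234 units in control eyes. The groups did not overlap, and crushed eyes averaged 206 ± 13.6 units, against 279.98 ± 47.7 units for control eyes (SD, n = 3 each). The fold change was -0.43 (SE 0.16, adjusted p = 0.642 in limma).

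Rsad2, the radical SAM enzyme viperin, had 747, 712 and 734 units in crushed eyes and 849, 788 and 896 units in control eyes. Its groups did not overlap either, though the fold change was small at -0.21 (SE 0.13, adjusted p = 0.688), and a second probe set gave 0.04. Cmpk2, its neighbour on chromosome 12, a nucleotide kinase that helps supply what viperin uses, had a difference of -0.16 with overlapping groups. Xaf1, which promotes cell death, and Ifi27 and Ifi35 had differences of -0.35, -0.33 and -0.12. In Xaf1 and Ifi27 crushed eye 2 alone was far below the rest, at 124 and 1099 units, while crushed eye 3 was the highest of all 6 eyes. Other probe sets gave -0.16 for Xaf1 and -0.06 for Ifi27. Those of Ifi35 gave 0.06 and -0.36, and neither was lower in all pairs.

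**Figure D3:**
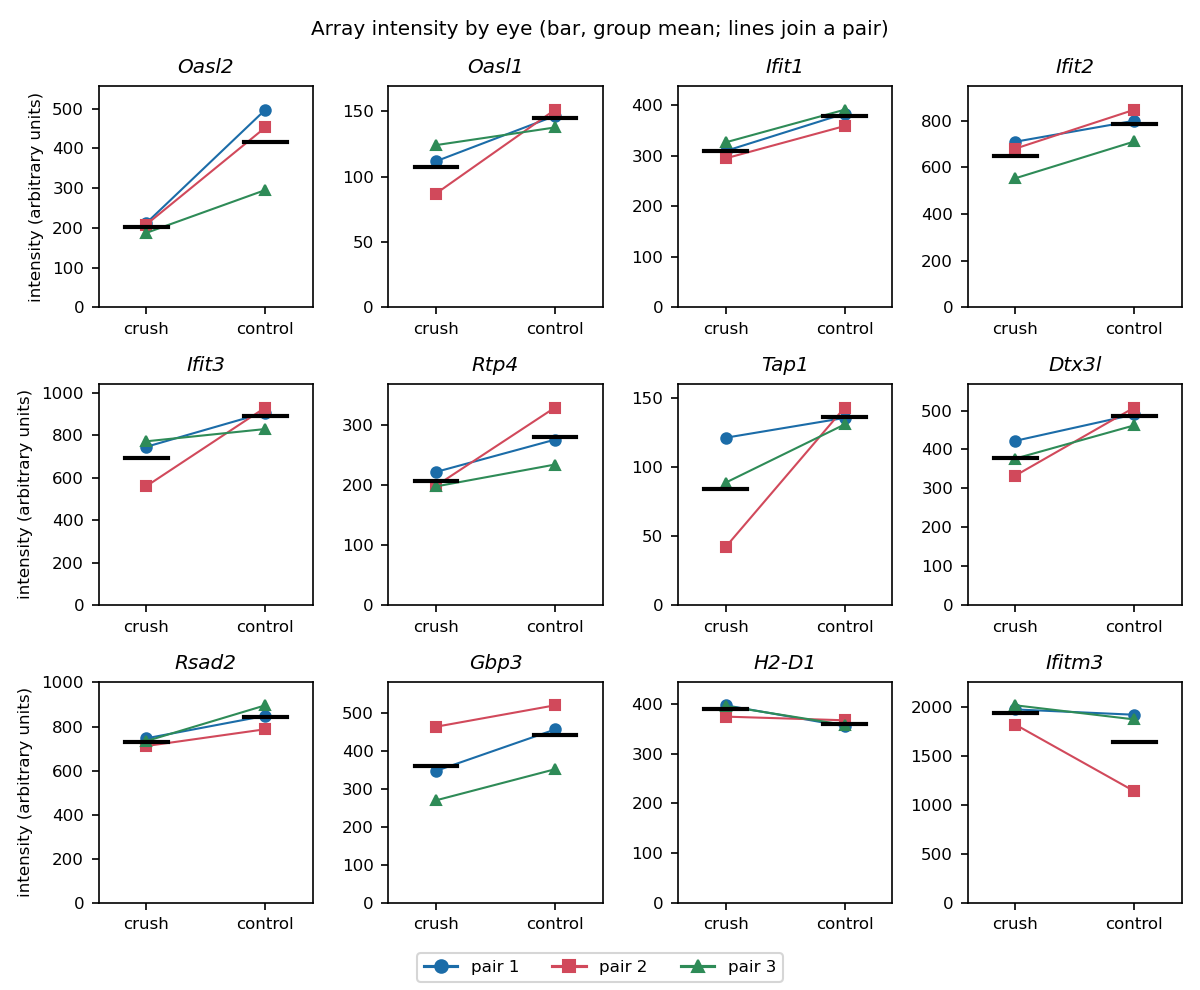
Intensity in arbitrary units of 12 genes in the crushed and control eyes, with lines joining the eyes of a pair and a black bar at each group mean. In Oasl2 the 3 crushed eyes lie at 187 to 212 units, under the control eyes at 295 to 497, while Gbp3 shows parallel lines with overlapping groups.

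The antigen presentation genes were split. Tap1, a subunit of the transporter that carries peptides to class I molecules, had 121, 42.0 and 88.5 units in crushed eyes and 135, 143 and 131 units in control eyes. The control eyes lay close together and all crushed eyes were below them, with crushed eye 2 far the lowest. Crushed eyes averaged 83.8 ± 39.7 units, against 136 ± 6.16 units for control eyes (SD, n = 3 each), and the fold change was -0.83 (SE 0.33, adjusted p = 0.642 in limma). Without pair 2 it was -0.36. Of its 3 other probe sets, all dimmer, 1 was nominally lower by 0.45 (adjusted p = 0.642) and the others gave -0.15 and -0.13.

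Its partner Tap2, with 1 coding gene between them on chromosome 17, had a difference of 0.09 and overlapping groups. B2m, the light chain of class I molecules, had 774, 772 and 764 units in crushed eyes and 760.1, 1030.2 and 717 units in control eyes, and control eye 2 alone was high. A second, dimmer B2m probe set was lower in all pairs, with a difference of -0.30 (adjusted p = 0.653 in limma). H2-K1 and H2-D1 are class I heavy chains, and their brightest probe sets are of a kind that may also bind related class I transcripts, so that their values are uncertain as to the gene. H2-K1 had a difference of 0.05 with overlapping groups, and its other probe sets gave -0.10 and -0.20. H2-D1 had 397, 374 and 396 units in crushed eyes and 355, 367 and 357 units in control eyes. It was the only gene with all crushed eyes above all control eyes, by 0.11 (SE 0.13, adjusted p = 0.819), and its 4 other probe sets ran from 0.22 to -0.56. The lowest of these was nominally lower (adjusted p = 0.642).

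A further 153 genes of the same pathways were listed by role, and 93 of them were measured. Their median difference was -0.07. The crushed eye was lower in all pairs in 22 (23.7%, against 15% of all genes), and all crushed eyes lay below all control eyes in 7 (7.53%, against 5.32%). The largest list among them, further interferon-stimulated genes (42 of 58 measured), lay near the shares of all genes. In it 6 genes were lower in all pairs (14.3%) and 6 higher (14.3%, against 15.2% of all genes). All crushed eyes lay below all control eyes in 2 of the 42 (4.76%) and above them in 3 (7.14%, against 5.69%). Of the 93 genes 3 were nominally lower (3.23%, against 2.27% of all genes) and 1 nominally higher (1.08%, against 2.76%), with an adjusted p of 0.642 each. Ticam1, the adaptor of the RNA-sensing Toll-like receptor, had 231, 123 and 189.8 units in crushed eyes and 257, 238 and 301 units in control eyes, a difference of -0.59. Zc3hav1, which destroys viral RNA, and Erap1, which trims peptides for class I molecules, had differences of -0.57 and -0.81, with crushed eye 2 the lowest in both as in Ticam1. Ly6e, an interferon-stimulated surface protein, had 242, 379 and 428 units in crushed eyes and 172, 255 and 252 units in control eyes, higher in each pair by 0.49, 0.57 and 0.76.

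Of the genes that encode interferons, the receptor signaling genes and the class II genes, none was nominally changed. The interferons measured were Ifnb1, Ifna1 and Ifnab, of which Ifnb1 had 106, 86.4 and 105 units in crushed eyes and 123, 102 and 117 units in control eyes. The names of the Ifna1 and Ifnab probe sets mark probes that may bind related transcripts. The signaling list (9 of 13 measured) held Jak1, Jak2, Tyk2 and Stat3, the phosphatases Ptpn1 and Ptpn2, the factors Irf4 and Irf5 and the receptor chain Il10rb, and had a median of -0.10. Class II genes (7 of 12 measured) had a median of -0.07, and the further class I genes (13 of 25 measured) one of -0.09, with 5 lower in all pairs (38.5%, against 15% of all genes) and 1 higher (7.69%, against 15.2%). The higher one was Tapbp, which tethers the transporter to class I molecules, with a difference of 0.29 (adjusted p = 0.679).

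**Figure D4:**
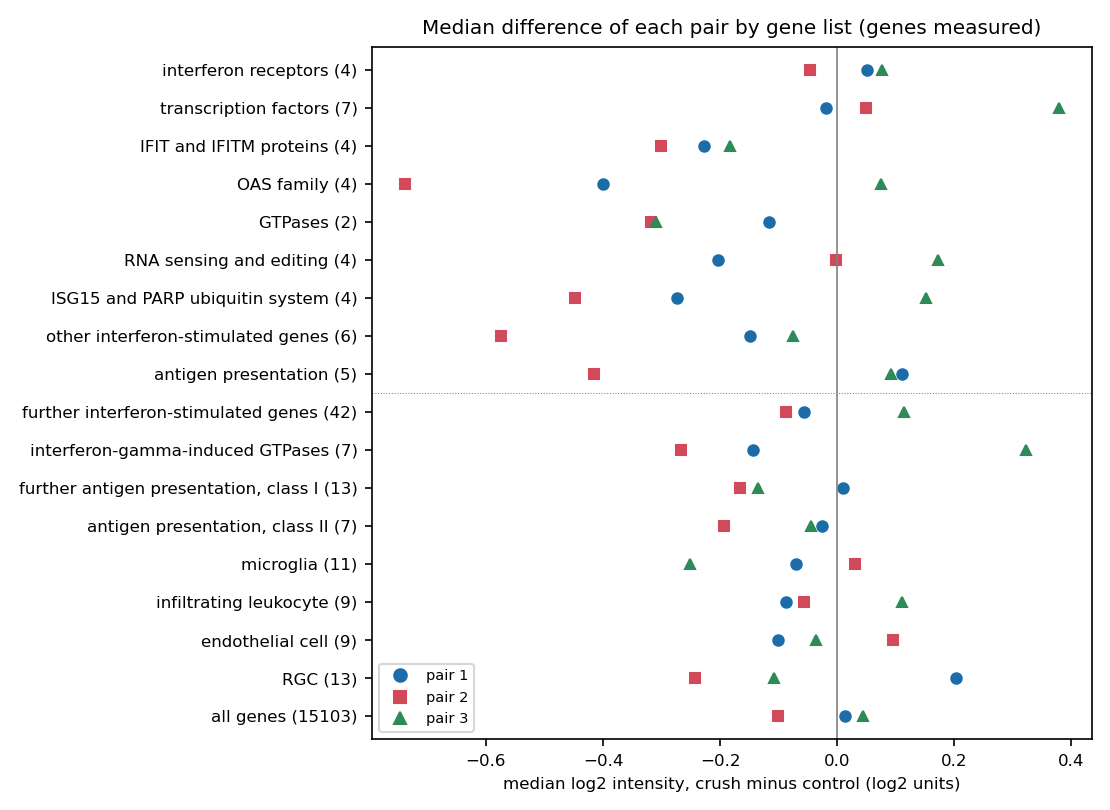
Median log2 difference, crush minus control, of each pair for the role groups of the list, for further pathway genes, for cell type markers and for all genes, with the number of genes measured in parentheses. In the IFIT and IFITM group all 3 pairs lie below 0 (-0.23, -0.30 and -0.18). The same holds for the GTPases of the list, the other interferon-stimulated genes and the class II genes. In the OAS family pair 3 lies at 0.07.

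Cells other than neurons can carry much of an interferon signature, so their markers were read in the same eyes. Microglial markers (11 of 14 measured) had a median difference of 0.06. Of these, 5 were lower in all pairs (45.5%, against 15% of all genes) and none higher (against 15.2%). They summed to 5067 to 6223 units in crushed eyes and 4820 to 6797 units in control eyes. Itgam and Trem2 were not measured. Tmem119 among the others was nominally lower by 0.37 (adjusted p = 0.642). Markers of infiltrating leukocytes (9 of 15 measured) summed to 1139 to 1743 units in crushed eyes and 1425 to 1727 units in control eyes, and Ptprc, the leukocyte antigen CD45, was nominally higher by 0.57 (adjusted p = 0.642). Over the leukocyte list the median was -0.13, and 0.11 in pair 3 alone. Of the 9 genes 7 were below 0 (77.8%, against 54.3% of all genes). Every crushed eye lay above every control eye in Ptprc (11.1%, against 5.69% of all genes). The reverse held for Cd8a (-0.60) and Lyz2 (-0.33) (22.2%, against 5.32%). Cd8a had 144 units in crushed eye 2 and 365 and 368 units in crushed eyes 1 and 3. The T cell genes Cd3e, Cd3g and Cd4 were not measured. Endothelial markers (9 of 12 measured) summed to 9601 to 11270 units in crushed eyes and 9859 to 11290 units in control eyes. Muller glial markers (9 of 9 measured) had a median of -0.09, with 8 of 9 below 0 (88.9%, against 54.3% of all genes). These markers summed to 42298 to 43553 units in crushed eyes, all under the 43990 to 48402 units in control eyes. Aqp4 among them was nominally lower by 0.36 (adjusted p = 0.642). Amacrine markers (7 of 7 measured) had a median of -0.21, with 2 lower in all pairs (28.6%, against 15% of all genes). They summed to 24390 to 26678 units in crushed eyes and 26038 to 30760 units in control eyes. Astrocyte markers (5 of 6 measured) summed to 8371 to 9436 units in crushed eyes and 6600.3 to 9483 units in control eyes, with Gfap nominally higher by 0.85 (adjusted p = 0.642), and rod markers (6 of 7 measured), of cells that lie outside the captured layer, had pair medians of -0.14, 0.16 and 0.74, with sums of 36904 to 42870 units in crushed eyes and 26605 to 46887 units in control eyes. The part of these cells in the differences above was not tested.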

How the data were processed

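Intensities were deposited per probe set for 6 arrays. Per the labels and methods, the authors computed them in dChip with invariant set normalization and a model of perfect match and mismatch probes. Here a floor of 16 was applied before log2, and the 33169 of 45037 probe sets that averaged 40 or more were fitted in limma 3.58.1 (R 4.3.3) with the pair as a block and Benjamini-Hochberg adjustment. Symbols came from the platform table (34945 probe sets with 1 symbol, 932 with several, 9160 with no entry). Eyes of the same number deviated together (correlations 0.15, 0.13 and 0.30, against -0.26 to 0.13 for eyes of different numbers), so the numbers were taken as pairs, although crushed eye 1 and control eye 2 correlated as highly as pair 2. That pairing comes from the labels' numbers and this check, and no source here names each animal. Replicates are separate eyes. The genes and lists were chosen with earlier results of these data known. Eye-by-eye values were due for genes nominally changed, or moving 1 way in all pairs with means at least 1.2-fold apart. Others shown were chosen after their values were seen. The fit was tested on simulated data. Alternatives changed the floor, filter, scaling, block, prior, test and summary of probe sets, or left out eyes. The precision is limited by the number of arrays.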

Additional observations from a re-analysis of the deposited data

How the results depend on the processing

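The median difference of the 40 genes stayed below 0 in every alternative, from -0.19 to -0.03 when a pair was left out. The genes below 0 (26 of 40) were 25, 21 and 30 without pairs 1, 2 and 3, where the median over all genes was -0.03, 0.03 and -0.05. No gene of the list passed an adjusted p under 0.05 in limma or in the methods' t-test, a paired test on unlogged intensities. The count of nominally lower genes was 3, beside 2.27% of all genes. It was 7 with a floor of 64 (2.86%) and 2 with a floor of 1 (2.24%). It was 6 without a filter (3.32%), after quantile normalization (3.58%) or on averaging all probe sets (3.04%). It was 5 for genes that averaged 100 or more (2.05%) or after scaling the arrays to 1 median (3.26%). The methods' t-test also gave 5 (2.33%), but these were Gbp3, Ifih1, Ifit1, Ifit2 and Rsad2, none of them among the 3 of the main fit. Of the 6 without a filter only Oasl2 was among those 3. Without pairs 1, 2 and 3 the count was 2, 1 and 4 (2.17%, 1.34% and 2.33%). Without the replicate block it was 4 (Dtx3l, Oasl1, Oasl2 and Rtp4, not Tap1), beside 1.85% of all genes. In alternatives chosen after seeing the data it was 1 without crushed eye 2 (1.73% of all genes) and 5 without crushed eye 3 (3.4%), both without the block. The count of nominally higher genes (0) was 1 without pair 1 (2.69% of all genes) and 0 without pair 2 or 3 (1.95% and 1.19%). With an intensity trend and robust prior it was 1 (3.09%), the gene being Irf3 each time. The stricter call rule (1 gene) gave 4 with a floor of 64, 3 without a filter, after quantile normalization or without crushed eye 3, 2 without the block, with a mean of at least 100, after median scaling, with the trend or in the methods' t-test, and 1 to 2 when a pair was left out. The share of all genes under this rule is given for the main fit only (0.695% lower and 1.5% higher), so these counts have no background beside them. Oasl2 lost its nominal call only in the methods' t-test. Rtp4 lost it without any 1 pair (-0.49, -0.28 and -0.52 without pairs 1, 2 and 3), without a filter and in the methods' t-test, and Tap1 when pair 2 (-0.36) or pair 3 (-0.96) was absent, at a floor of 64 (-0.63) or 1, without a filter, without the block and in the methods' t-test. The genes lower in all pairs (12) were 14, 12 and 21 without pairs 1, 2 and 3 (35%, 30% and 52.5%, against 29.3%, 20.4% and 31.2% of all genes). Those below every control eye (9) were 11, 11 and 17 (27.5%, 27.5% and 42.5%, against 18.7%, 11.3% and 20.7%). Both were highest without pair 3, and fewer eyes make each order easier to reach. Quantile normalization gave 14 and 10 (18.6% and 7.06% of all genes), and median scaling 13 and 8 (17.4% and 6.08%). Averaging all probe sets gave 13 and 8 (14.6% and 5.43%). The 13 then held B2m, Gbp2 and Ifi27 but not Ifi35 or Rsad2, and Rsad2 was not among the 8 either. The genes higher in all pairs (5) were 7 to 11 when a pair was left out (17.5% to 27.5%, against 23.2% to 30.8% of all genes). Those above every control eye (1) were 5 to 6 (12.5% to 15%, against 15.9% to 17.2%). The genes higher in all pairs were 1 under either scaling, and H2-D1 no longer lay above every control eye after median scaling. Over all genes, 2.27% were nominally lower and 2.76% higher, against 3.58% and 2.6% after quantile normalization. The H2-D1 difference was -0.02 with the mean of its probe sets.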
